A study of Papaver somniferum with 12 samples.

Results

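Leaves of opium poppy (Papaver somniferum) taken at florescence, when the first flower opens, were compared with leaves taken at jointing, when the stem elongates. The comparison rests on 6 libraries, 3 for each phase, of the 12 RNA sequencing libraries of the series. All plants were of the cultivar B1, grown in the experimental plot of the institute, with no treatment given. The libraries of a phase came from independent samples. The other libraries come from seedling leaves and from leaves at bolting, when the bud first shows, with 3 libraries each. They entered the fit to share its estimate of spread and serve below to place the changes. The phases were sampled at successive dates, so growth phase, leaf age and date cannot be told apart.

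The units measured were unigenes, which are non-redundant transcript sequences built from long reads of pooled poppy RNA. Of 61856 unigenes, 31242 averaged 1 RPKM or more across the 12 libraries and were tested. RPKM is the read number scaled to the length of the unigene and to the mapped reads of the library. The table gives identifiers such as PB.734.2622 and pairs none with a gene name, and 0 of them occur in the gene table at hand. The study reports a functional annotation of the unigenes, which was not used here. The question taken up here is therefore how many transcripts differ between the phases, by how much, at which levels and in which libraries. Gene families, pathways and cell type markers were not analysed here, and the leaf label could not be checked against markers.

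Opium poppy is grown for its benzylisoquinoline alkaloids, which include morphine, codeine, papaverine and noscapine. They are stored in latex, the cytoplasm of laticifers, which are secretory cells that run beside the phloem. At jointing the leaves are growing and feed an elongating stem, and at first bloom they supply sugars and nitrogen to flowers. Nuclear mRNAs for photosynthesis are usually among the most abundant in a green leaf. In whole leaves, fewer cells of a type and less RNA per cell cannot be told apart.

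The read number behind each value is unknown; the sequenced bases that the study lists per library overlap between the phases and were not used here. Summed RPKM was 1098180 ± 46158 at jointing and 1029040 ± 26976 at florescence (SD, n = 3 each). Jointing replicate 3 stood apart from the other jointing libraries. On values scaled by median of ratios, the median absolute difference on log2(RPKM + 1) was 0.142 between jointing replicates 1 and 2, but 0.265 and 0.250 between replicate 3 and these 2. The 3 florescence pairs lay between 0.156 and 0.176, and the 9 pairs across the phases between 0.318 and 0.396. The RNA integrity numbers that the study lists are lower for every florescence library than for any jointing library, so RNA integrity and phase cannot be told apart here.

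More transcripts were called lower than higher at florescence. Of the 31242 tested unigenes, 1457 were higher (4.66%) and 1747 lower (5.59%) on the values as deposited, where a call asks for a limma adjusted p below 0.05 together with 1 or more log2 units of log2(RPKM + 1) between the phase means. Scaled by the median of ratios, 1368 were higher (4.38%) and 1664 lower (5.33%). The lists were nearly the same: 3030 unigenes were called in both, which is 94.6% of the calls as deposited and 99.9% of the scaled calls, and 0 were called in opposite directions. The median difference over all tested unigenes was 0.01 as deposited and 0.00 scaled. Scaling each library to an equal total turned the balance, to 1753 higher and 1554 lower. The balance also turned when the demand on size was dropped, with 5810 higher and 5028 lower. With a minimum mean of 10 RPKM it was nearly even, at 731 higher and 728 lower. Of the calls as deposited with a mean between 1 and 5 RPKM, 457 were higher and 737 lower.

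Nearly all calls parted the libraries, which the demands of a call on the same libraries make likely. In 1436 of the 1457 higher calls (98.6%) every florescence library was above every jointing library, and in 1725 of the 1747 lower calls (98.7%) every one was below. Such parting was common among all tested unigenes too, at 44.1% as deposited and 47% after scaling. Of the unigenes with a difference of at least 1, 263 missed the adjusted p, 135 of them higher and 128 lower. Without jointing replicate 3 there were 2966 calls, 1386 higher and 1580 lower, and 2643 of these were among the 3204 calls from all libraries.

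**Figure D1:**
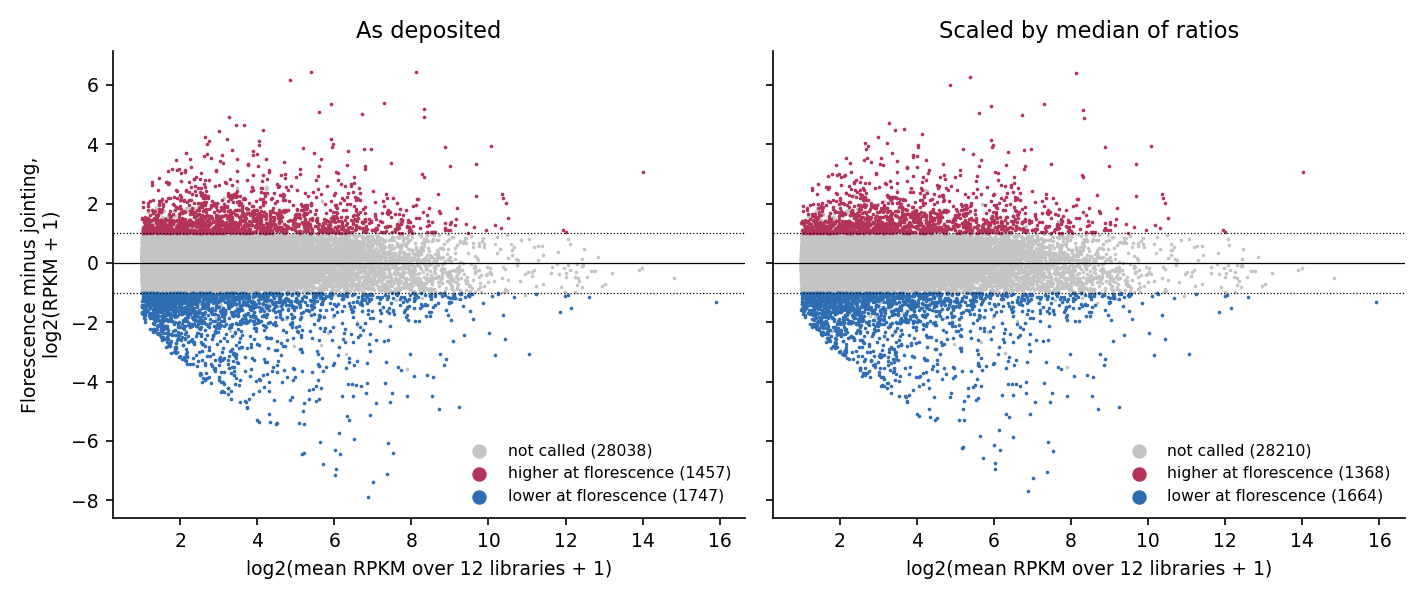
Each point is 1 of the 31242 tested unigenes, with its mean level on the x axis and its difference, florescence minus jointing, on the y axis, both on log2 scales; dotted lines mark a difference of 1. The left panel shows values as deposited (1457 higher, 1747 lower) and the right panel values scaled by median of ratios (1368 higher, 1664 lower), and in both the falls reach further from 0 than the rises.

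Falls were larger than rises. The median difference on the log2(RPKM + 1) scale was 1.39 for the higher calls and -1.49 for the lower calls. A difference of at least 2 was reached by 273 higher and 483 lower calls, of at least 3 by 75 and 212, of at least 4 by 21 and 80, and of at least 5 by 8 and 26. With scaled values the last counts were 8 and 25. The largest rise was 6.44 and the largest fall -7.87. These are medians and counts over called unigenes, which the threshold of 1 selects.

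Means under 1 RPKM were more frequent among the falls at florescence than among the rises at jointing. Most calls of both kinds stayed above that level. Among the 1747 lower calls, 537 had a florescence mean under 1 RPKM, and the 10th percentile of that mean was 0.22 RPKM. Among the 1457 higher calls, 192 had a jointing mean under 1 RPKM, and the 10th percentile was 0.809 RPKM. The median unigene of the higher calls had a mean of 5.58 RPKM at jointing and 19.2 RPKM at florescence. The median of the lower calls was 12.3 RPKM at jointing and 2.26 RPKM at florescence.

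Calls were more frequent among abundant transcripts. Between 1 and 5 RPKM, 2.82% of 16195 unigenes were higher and 4.55% lower, and between 5 and 15 RPKM 5.07% and 5.46% of 7932. Between 15 and 100 RPKM the shares were 7.79% and 6.67% of 5711, and this was the only level at which rises outnumbered falls. Between 100 and 1000 RPKM they were 11% and 13.9% of 1298, and at 1000 RPKM or more 9.43% and 15.1% of 106, which is 10 higher and 16 lower unigenes. Differences on the log2(RPKM + 1) scale understate changes of low values, and this was not separated from the effect of level.

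**Figure D2:**
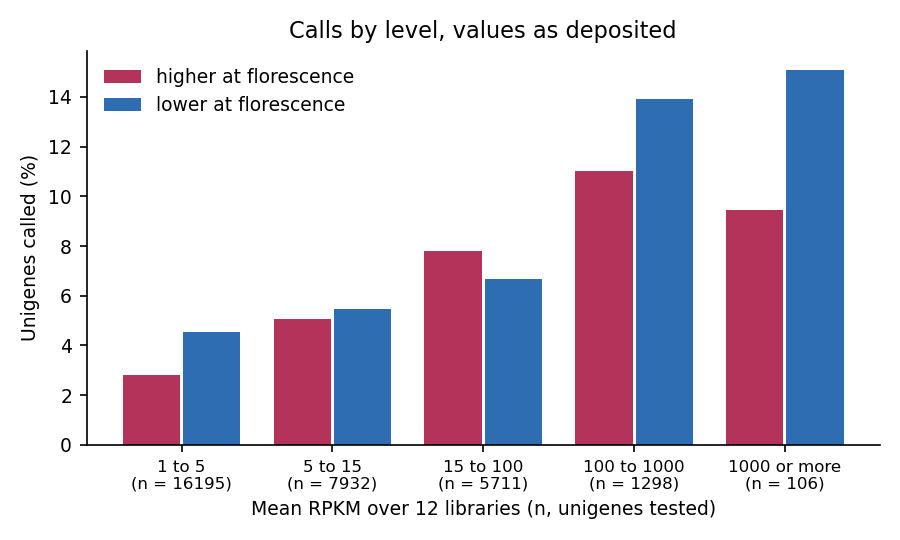
Bars give the share of tested unigenes called higher (red) or lower (blue) at florescence in 5 classes of mean RPKM, with the number tested under each class. The shares are lowest from 1 to 5 RPKM (2.82% and 4.55%) and falls are most frequent at 1000 RPKM or more (15.1%).

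The called unigenes held different shares of the summed RPKM in the 2 phases. The higher calls held 4.93%, 4.59% and 3.37% of the total in jointing replicates 1, 2 and 3, and 16.0%, 15.5% and 16.7% in the florescence replicates. The lower calls held 19.0%, 19.1% and 19.6% at jointing and 7.53%, 7.36% and 6.42% at florescence. A large part lay in single unigenes. PB.734.2622, a lower call, held 6.30%, 6.01% and 4.14% of the total in the jointing replicates. PB.225.272, a higher call, held 3.63%, 3.10% and 3.30% in the florescence replicates. These shares describe unigenes chosen on the same libraries and carry no test.

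Of the higher calls, 792 had at least 15 RPKM at florescence, were called in both scalings and parted the libraries, and 769 lower calls met the same demands at jointing. By a fixed rule, the unigenes with the largest log2 change and with the largest change in RPKM are named in each direction. They are shown as examples of size, with no gene name attached.

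PB.60467.1 had the largest rise. It was at 0, 0.86 and 0 RPKM in the jointing replicates and at 79.6, 138 and 107 RPKM at florescence, so the transcript went from absent or nearly so to clearly present in all 3 libraries. In log2(RPKM + 1) the rise was 6.44 ± 0.41 (SE), with an adjusted p of 3.35e-06 in limma, and it was 6.26 after scaling. It was not a transcript of flowering leaves alone: seedling leaves had 31.0, 52.3 and 46.5 RPKM, and bolting leaves 20.4, 6.84 and 5.78. Jointing was the low point among the 4 phases.

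PB.225.272 gained the most RPKM. It rose from 7915, 5067 and 1684 RPKM in the jointing replicates to 37663, 32553 and 32999.95 RPKM at florescence, with no overlap. Its mean went from 4889 ± 3120 to 34405 ± 2830 RPKM (SD, n = 3), a ratio of 7.04. The difference was 3.08 ± 0.49 (SE; limma, adjusted p = 0.000673) and 3.07 after scaling. This single sequence held 0.696%, 0.456% and 0.161% of the summed RPKM in the jointing replicates, and 3.63%, 3.10% and 3.30% at florescence. In seedling leaves it had 17919, 21272 and 14512 RPKM and in bolting leaves 14802, 7069 and 5766. The lowest library was jointing replicate 3, and without it the difference was smaller, at 2.44, and still called.

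PB.59986.1 had the largest fall. Jointing leaves had 406, 70.0 and 609 RPKM, and florescence leaves 0.23, 0.11 and 0. The lowest jointing value was still far above every florescence value. The difference was -7.87 ± 1.12 (SE; limma, adjusted p = 0.000326) and -7.69 after scaling. The transcript varied widely inside the earlier phases as well. Seedling leaves had 15.7, 79.9 and 95.9 RPKM, and bolting leaves 3.85, 112 and 8.42.

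PB.734.2622, the unigene with the highest mean of the whole table, lost the most RPKM. It had 71616, 66716 and 43353 RPKM in the jointing replicates and 25204, 26692 and 20481 at florescence, with no overlap. The mean fell from 60562 ± 15103 to 24126 ± 3243 RPKM (SD, n = 3), which is 2.51 times lower. The difference was -1.30 ± 0.20 (SE; limma, adjusted p = 0.000551) and -1.31 after scaling. Its share of summed RPKM was 6.30%, 6.01% and 4.14% at jointing and 2.43%, 2.54% and 2.05% at florescence. Seedling leaves had 71432, 74318 and 80775 RPKM and bolting leaves 87987, 84549 and 86829, and both had higher means than jointing and florescence. This call depends on the unigenes fitted with it: with no filter on low values the difference was the same and the adjusted p in limma was 0.131.

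**Figure D3:**
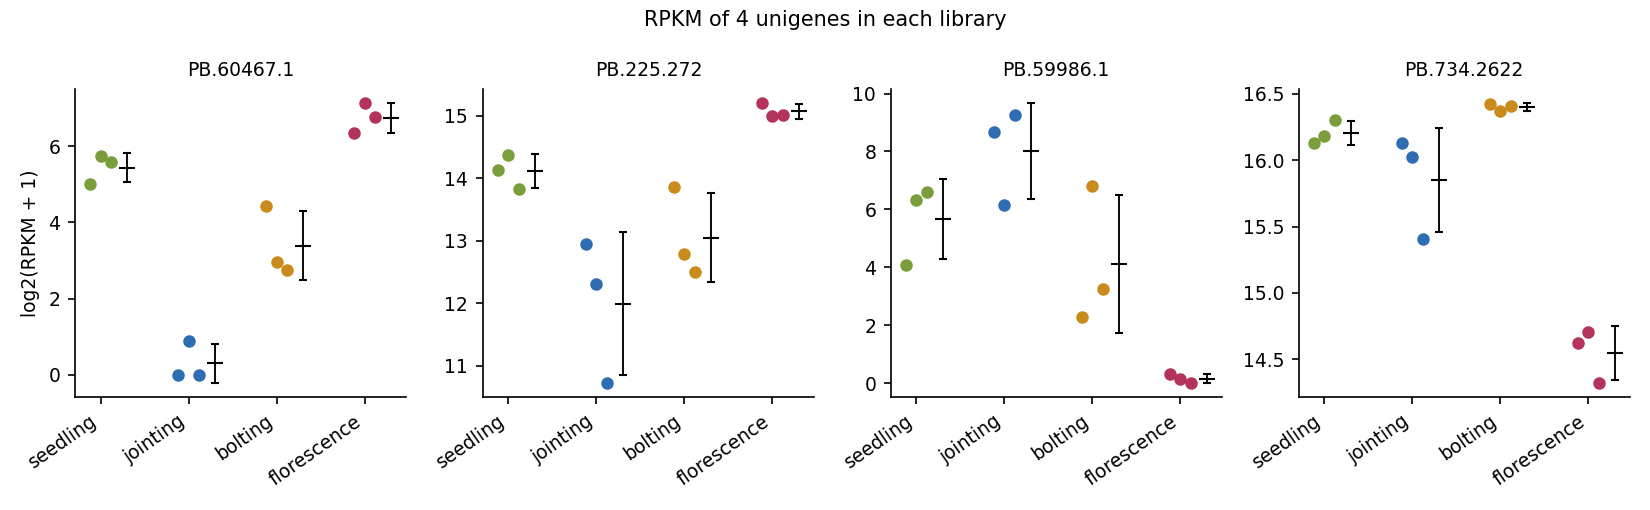
Points give log2(RPKM + 1) in each of the 12 libraries for 4 unigenes, by growth phase, and the bar beside them is the mean with its SD (n = 3). PB.60467.1 and PB.225.272 are lowest at jointing and highest at florescence, PB.59986.1 nearly vanishes at florescence, and PB.734.2622 is lowest at florescence; the 4 y axes differ in range.

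Behind the 2 leading examples the changes stayed large. Ranks 2 to 10 of the 792 higher candidates had florescence means of 34.4 to 1062 RPKM against jointing means of 0.153 to 35.2, and the rank 10 difference was 4.92. Ranks 2 to 10 of the 769 lower candidates had jointing means of 86.2 to 389.5 RPKM against florescence means of 0 to 5.02, and the rank 10 difference was -6.40. At rank 50 the differences were 3.28 and -4.42. A gain of at least 1000 RPKM was seen for 13 candidates and a loss of that size for 10.

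Of the 20 unigenes with the highest mean over the series, 1 was called higher, 2 were called lower and 17 were not called, where 10.3% of all tested unigenes were called. A lower mean at florescence was seen for 16 of the 20, of which 2 were called. The median difference over all tested unigenes was 0.01, and summed RPKM was itself lower at florescence, so the 16 are a description. All 20 together, which include the higher call PB.225.272, held 19.1% ± 3.62 of the summed RPKM at jointing. At florescence the 20 held 17.0% ± 1.51 (SD, n = 3 each). PB.46813.49, chosen after its values were seen as an abundant unigene that was not called, had 15882 ± 2046 RPKM at jointing and 13387 ± 1580 at florescence (limma, adjusted p = 0.215). The 10 highest unigenes of each library held 16.3%, 15.7% and 11.3% at jointing and 14.0%, 12.9% and 11.9% at florescence, so the phases overlapped. The mean difference was -1.53 percentage points (exact permutation test, two-sided, p = 0.4, adjusted p = 0.4 over 2 tests). Without jointing replicate 3 it was -3.08 percentage points (exact permutation test, p = 0.1).

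The number of unigenes above 0.1 RPKM was 46771, 46789 and 46765 at jointing and 46283, 45758 and 46456 at florescence. Every florescence library was below every jointing library, by 609 unigenes in the mean (exact permutation test, two-sided, p = 0.1, adjusted p = 0.2 over 2 tests). With 3 libraries against 3 this test cannot go below 0.1. After scaling, the difference was -757 unigenes (exact permutation test, p = 0.1). With a limit of 1 RPKM it was -621 unigenes (exact permutation test, p = 0.3), so the libraries were not fully parted at that limit.

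Seedling and bolting leaves show whether the called transcripts set florescence or jointing apart. Florescence had the highest of the 4 phase means for 95.4% of the higher calls as deposited and 85.8% of the scaled higher calls. Jointing had the lowest for 64.0% and 86.4%. Of the lower calls, jointing had the highest mean for 85.5% as deposited and 69.4% scaled, and florescence the lowest for 89.1% and 97.0%. Calls are selected on these 2 phases, which makes extremes there likely, so the shares are a description.

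How near the other phases lay to each end depended on scaling. Jointing was set to 0 and florescence to 1 on the log2(RPKM + 1) scale. For the higher calls as deposited, the median unigene had seedling at 0.27 and bolting at 0.19. With scaled values these medians were 0.52 and 0.41. For the lower calls they were 0.52 and 0.47 as deposited and 0.32 and 0.28 scaled. Seedling and bolting libraries have lower median-of-ratios factors, 0.817 to 0.932, than jointing and florescence libraries, 1.09 to 1.26, and this offset moves them up against both phases when it is removed. In both scalings the medians lay between the 2 phases. The unigenes were called for a gap between these 2 phases, which makes such a place likely, so the medians are a description.

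Single libraries also moved along this axis. The median of the scaled higher calls on log2(RPKM + 1) was 2.75, 2.70 and 2.37 in the jointing replicates and 4.20, 4.26 and 4.21 at florescence. It was 3.38, 3.50 and 3.43 in seedling leaves and 3.51, 3.07 and 3.04 in bolting leaves. The median of the scaled lower calls was 3.54, 3.50 and 3.76 at jointing, 1.71, 1.66 and 1.51 at florescence, 3.11, 2.89 and 3.04 at seedling and 2.72, 3.24 and 3.13 at bolting. Jointing replicate 3 lay furthest from florescence in both lists, and bolting replicate 1 was the bolting library nearest to florescence in both. The median over all tested unigenes stayed between 2.45 and 2.49 in every library.

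**Figure D4:**
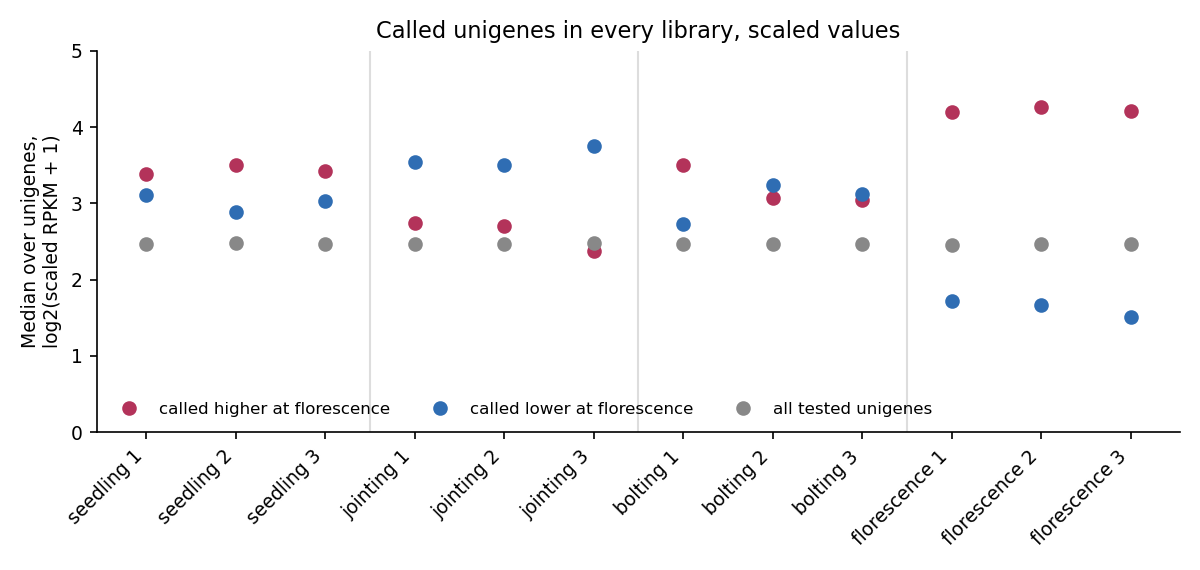
Points give the median over unigenes of log2(scaled RPKM + 1) in each of the 12 libraries, for the 1368 unigenes called higher at florescence (red), the 1664 called lower (blue) and all 31242 tested (grey). Red and blue lie in opposite order at jointing and at florescence, bolting replicate 1 has red above blue unlike the other bolting libraries, and grey is level.

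Bolting replicate 1 showed this unigene by unigene. It was the highest bolting library for 78.5% of the scaled higher calls, against 38.9% of all tested unigenes, and the lowest for 75.1% of the scaled lower calls, against 38.2%, with ties not counted. Bolting libraries entered the filter on the mean, the scaling factors and the shared spread, but not the contrast. Among the jointing libraries, which did take part, replicate 3 was the lowest for 74.6% of the higher calls, against 41.2% of all tested, and the highest for 57.6% of the lower calls, against 39.6%. What sets these libraries apart was not tested.

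Switches from present to absent ran mostly in 1 direction. In the whole table, 109 unigenes had at least 1 RPKM in all 3 jointing libraries and at most 0.1 RPKM in all 3 florescence libraries. The reverse held for 13 unigenes. Of the 109, 70 passed the filter on the mean, and of the 13, 8 passed. All of these were called, which the demands on them make likely but do not require. The counts depended on the limits: with exactly 0 RPKM in the off phase they were 31 and 5, and with a limit between 3 and 4 RPKM in the on phase 35 and 6. Without jointing replicate 3 they were 116 and 16. Leaving out jointing replicate 2 or florescence replicate 2 raised the smaller count to 21 in each case.

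The 109 unigenes switched off at florescence had jointing means of 1.27 to 122 RPKM, with a median of 3.58, and 22 of them had at least 10 RPKM. Their summed RPKM was 627, 631 and 1588 in the jointing replicates and 2.53, 2.14 and 2.34 at florescence. They were not specific to jointing: 100 of the 109 were above 0.1 RPKM in all 3 seedling libraries, and 0 of them were at or below 0.1 RPKM in all of the other 9 libraries. Their sum was 312, 179 and 218 RPKM in seedling leaves and 43.2, 264 and 201 RPKM in bolting leaves.

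The 109 unigenes tended to rise and fall together between libraries of a phase. Jointing replicate 3 was the highest jointing library for 87 of them, against 55.7% of all tested unigenes. Bolting replicate 1 was the lowest bolting library for 99, against 53.7% of all tested, and it was at or below 0.1 RPKM for 45, whereas replicate 2 was so for 4 and replicate 3 for 15. Seedling replicate 1 was above 3 and 3 above 2 for 69, against 22.6% of all tested. With scaled values the first counts were 82 and 98, against 39.6% and 38.2%. Seedling and bolting values were not used to choose these unigenes. Of the 109, 70 were among the tested unigenes, so the shares of all tested come from a set chosen differently.

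The 13 unigenes switched on at florescence had low levels. Their florescence means ran from 1.59 to 10.8 RPKM, with a median of 3.97. Their median over unigenes was 0 RPKM in each jointing library, at most 0.08 RPKM in every seedling and bolting library, and 3.47, 3.82 and 4.30 RPKM in the florescence replicates. Of the 13, 5 were at or below 0.1 RPKM in all 9 libraries of the other phases. The remaining 8 had a seedling or bolting library above that limit, and 2 of these reached 1 RPKM there. Of these, 1 unigene, chosen after its values were seen, had 2.51, 7.35 and 4.62 RPKM in seedling leaves, 0, 0.03 and 4.02 in bolting leaves, and 7.21, 14.96 and 5.55 at florescence, so its seedling and florescence values overlapped.

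**Figure D5:**
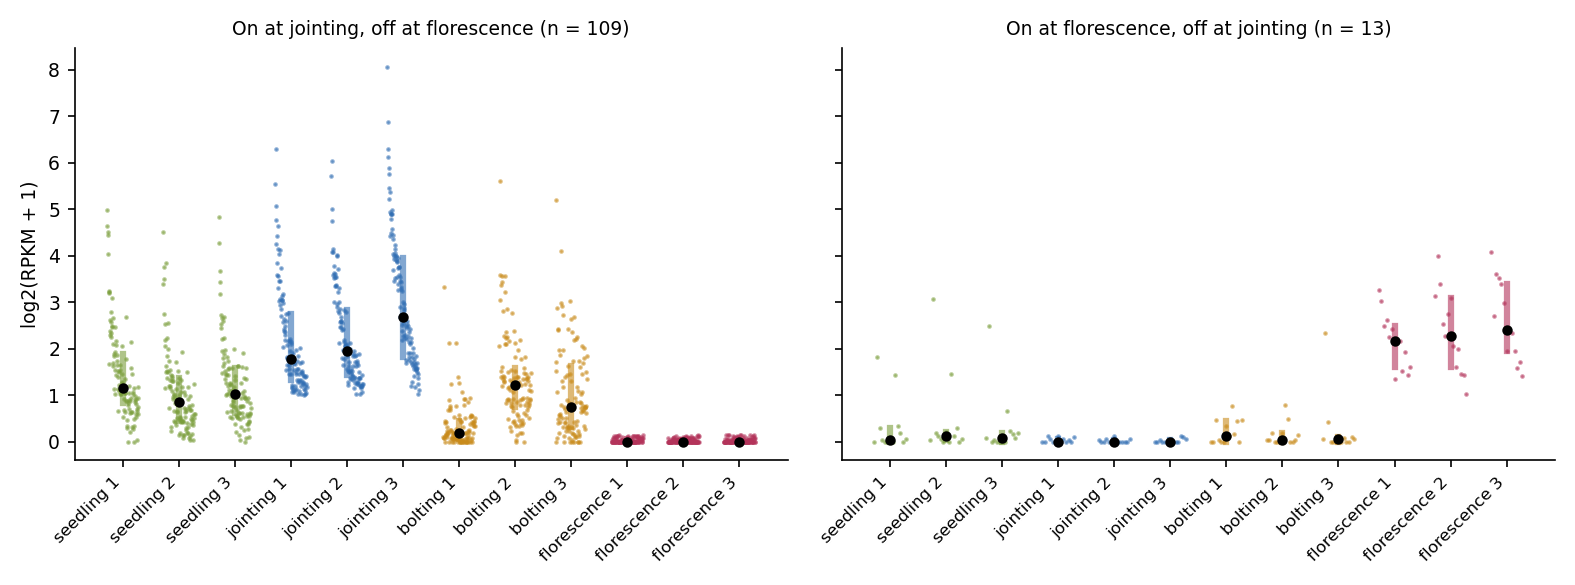
Small points give log2(RPKM + 1) of single unigenes in each of the 12 libraries, thick lines the quartiles and black points the median, for 109 unigenes on at jointing and off at florescence (left) and 13 unigenes with the reverse (right). On the left the values are highest in jointing replicate 3, lowest of the bolting libraries in replicate 1 and at most 0.1 RPKM at florescence; on the right the medians are highest at florescence, and 2 unigenes also reach 1 RPKM in seedling or bolting leaves.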

How the data were processed

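Leaves were sequenced at 4 growth phases with 3 libraries each, and columns were matched to samples by the library code in the labels. According to the labels and the methods, the authors mapped paired-end Illumina reads with HISAT2 to long-read unigenes and estimated expression with RSEM. The deposited values are RPKM with at most 2 decimals, and no scaling between libraries is stated. Near-identical sequences share reads that RSEM divides by estimation. No counts were used, so the depth behind a value is unknown. Of the per-sample columns, 0 were left out.

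The contrast was fitted to log2(RPKM + 1) of 31242 unigenes in all 12 libraries, using limma 3.58.1 (R 4.3.3) with phase as the only factor and the prior variance trended on level, with Benjamini-Hochberg adjustment over all of them. The count test of the study was not applied to RPKM. Scaled values were divided by the median ratio to the geometric mean over 43618 unigenes above 0 in every library. Named unigenes were called in both scalings, reached 15 RPKM where they were higher, showed no overlap between the phases and had the largest change on the log2 scale or in RPKM. In data simulated for florescence against jointing, 186 of 200 unigenes changed by 2 were recovered among 31242, with 4 false calls. With a change of 1.5, nearer to the median size of the real calls, 177 of 200 were recovered, with 2 false calls. With 0 unigenes changed, 0 were called. These rates belong to the simulated data. The changed unigenes were drawn only from those with a mean log2(RPKM + 1) above 2, so recovery below that level was not tested. Nor was recovery tested with a library that stands apart as jointing replicate 3 does. Sums over identifiers with a shared first number were planned, but all 61856 first numbers are unique. Sequences were not used here. The comparison, lists and rules were chosen with earlier results of these data known.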

Additional observations from a re-analysis of the deposited data

How the results depend on the processing

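Every planned setting kept the direction of all unigenes it called in common with the values as deposited. A minimum mean of 10 RPKM left fewer unigenes tested, 9654, and 1459 called. Of these, 731 were higher and 728 lower, so the excess of lower calls was not seen there. Without the demand on size 10838 were called, 5810 higher and 5028 lower. The other scalings, pseudocounts, filters and thresholds gave 2927 to 4314 calls. Leaving out 1 library gave 2966 to 3413 calls, 1360 to 1555 higher and 1580 to 1874 lower. The named unigenes kept their calls in every setting, except that PB.734.2622 had an adjusted p of 0.131 in limma with no filter on low values, where its difference was -1.30. The cause was not tested. Across single libraries left out, the difference was 6.25 to 6.74 for PB.60467.1, 2.44 to 3.55 for PB.225.272, -8.81 to -7.26 for PB.59986.1 and -1.53 to -1.17 for PB.734.2622.

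Unigenes on at florescence and off at jointing numbered 13, and 15 to 21 with 1 library left out, 5 with 0 RPKM in the off phase and 6 with a limit between 3 and 4 RPKM in the on phase. The reverse numbered 109, and 116 to 144 with 1 library left out, 31 and 35. Fewer libraries to satisfy gives more unigenes by construction. The share of the 10 highest unigenes differed by -3.08 to -0.597 percentage points, and the unigenes above 0.1 RPKM by -754.5 to -405.5, with 1 library left out.

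The labels give both phases the same replicate numbers, but same-numbered libraries did not deviate together: the correlations of their deviations from the phase means were -0.190, -0.467 and 0.059. With the replicate block there were 3210 calls in the fit on 12 libraries and 3030 in the fit on the 6 libraries of the comparison, against 3115 in that fit without the block. Sums over identifier groups were not run, because every group holds 1 unigene. The unknown number of reads limits values near 0.1 RPKM.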

Other observations

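Below the filter, the 30614 unigenes with a mean under 1 RPKM added few calls. Differences on the log2(RPKM + 1) scale are small at such low values, which makes few calls likely. Of the 109 and 13 switched unigenes, 70 and 8 passed the filter, and the others lay below it. When every unigene above 0 in any library was fitted, 57263 were tested and 3341 called in limma, 1480 higher and 1861 lower, and 3130 of these were among the 3204 calls of the filtered table.

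Across the 109 unigenes switched off at florescence, the median log2 ratio of jointing replicate 3 to replicate 1 was 1.14 (SD over unigenes 0.87, n = 109), against 0.19 over all tested unigenes. The ratio of seedling replicate 1 to replicate 2 was 1 (SD 0.86, n = 107 above 0 in both), against 0.09. The SD over all tested unigenes was 0.66 and 0.54 for the same ratios. Jointing replicate 3 was above replicate 1 for 96 of the 109, and seedling replicate 1 above replicate 2 for 96. Their identities were not analysed here. Of the 109, 70 were among the tested unigenes, so the sets compared were chosen differently.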
